A study of Mus musculus with 9 samples.

Results

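The cytosolic ribosomal protein genes encode the proteins of the ribosome in the cytoplasm, named Rpl for the large subunit, Rps for the small subunit and Rplp for the P stalk, the flexible arm that recruits translation factors. Members were protein-coding genes named Rpl or Rps plus digits, with Rplp0, Rplp1, Rplp2 and Rpsa, and each gene was represented by its transcript with the highest mean count over the 9 samples. The annotation held 80 such genes, and 79 of them were listed in the files, among 33984 genes with an annotated transcript. Rpl41 was the gene not listed. The 75 that are described here, called members from here on, are 48 of the large subunit, stalk included, and 27 of the small subunit. The samples were laser-captured areas of 3 piriform cortex layers of wild type C57BL/6 mice, aged 8 weeks by the labels (the study's methods give another age), with 3 replicates in each of layers A, B and C (A, B and C alone beside values). Nothing in the labels ties a letter to one of the numbered layers, or a sample to an animal, so the p-values measure only the spread between these samples, which may be technical.

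A ribosome carries a single copy of nearly all of these proteins, and cells make them in matched amounts, largely by controlling translation of their mRNAs through a pyrimidine stretch at the first bases (the 5′ TOP motif) that responds to the kinase complex mTORC1. The mRNAs are short and abundant in most tissues, neurons included, where some are carried into dendrites and axons. Because they are so abundant in the germ line, they were copied back into the genome many times as intronless processed pseudogenes, so that short reads from them often fit more than one place.

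The members' transcripts, 1 per gene, took a very small part of the counts summed over all listed transcripts. Isoforms of a gene could hold nearly the same counts, with means of 339.4 and 338.8 for the transcripts of Rps15. The totals are therefore not numbers of reads, and the shares below are not shares of reads. Total counts were 23104306 to 76471683 per sample, and the members together held between 2195 and 21131 of them. Mitochondrial ribosomal RNAs took 55.3 to 70.2% of the total in A, 12.8 to 28.1% in B and 20.5 to 57.1% in C. Without transcripts of the mitochondrial genome, the members' share was 0.035%, 0.0389% and 0.0442% in replicates 1, 2 and 3 of layer A. In layer B it was 0.0236%, 0.022% and 0.0495%, and in layer C it was 0.0274%, 0.0232% and 0.0351%. The lowest share, in layer B replicate 2, had a 95% Wilson interval of 0.0214 to 0.0226%, and the highest, in layer B replicate 3, one of 0.0487 to 0.0503%. The ranges of the 3 layers overlapped. Mean shares were 0.0394% ± 0.00462 (SD, n = 3) in A, 0.0317% ± 0.0154 in B and 0.0286% ± 0.00604 in C. The intervals cover counting error only, since amplified reads without molecular identifiers are not independent molecules. In bulk tissue, fewer cells of a type and less RNA per cell cannot be told apart.

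The members differed far more from one another than the layers did. Their mean count over the samples ran from 0 for Rpl10l, a retrogene copy of Rpl10 best known from testis, to 1053 for Rpl4 of the large subunit. Only 15 members had a mean count of 100 or more, and these held 88.2% of all member counts. A further 32 lay between 10 and 100, and 28 below 10. Rpl4, Rpl5, Rpl8, Rps3 and Rps15a alone took 53.0%. The median was 13.4 counts over the members, and 24.7 over the 53 that were tested, beside 91.1 over all 56416 tested transcripts. Mitochondrial ribosomal proteins, which build the separate ribosome of the mitochondrion, had a median of 177 counts over 78 genes. Low counts were also seen outside the group. Gapdh, a glycolytic enzyme, had 16.7 counts at its highest transcript. Higher counts were seen as well, with 510.7 for the elongation factor Eef1a1 and 3309 for Actb, which encodes beta-actin.

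Sequence that occurs elsewhere was common among the members. Each transcript was cut into every 50-base window, the read length, and the windows were looked for on both strands of the transcripts of other genes in the GENCODE annotation, without genes overlapping the member's own locus. In the median member, 38.3% of the windows had an exact copy in another gene, and 49.4% had a copy within 2 mismatches. At least 1 pseudogene shared such a window with 74 of the 75 members. The median was 14 pseudogenes, and the highest number was 159, for Rpl7a. Copies were measured on the transcript chosen for its highest mean count, so copies and level are not independent measures. The 11 members that matched 5 or fewer pseudogenes had a median of 121 counts per kilobase, and the 64 that matched 6 or more had 14.7. A mean count of 100 or more was reached by 6 of the 11 and by 9 of the 64. Across the 75 genes, which share libraries and are not independent replicates, Spearman's rho between the percent of windows with an exact copy and the count per kilobase was -0.259, and with the count itself it was -0.391. The relation has clear exceptions: Rpl3l and Rpl39l, tissue-restricted paralogs of Rpl3 and Rpl39, had no exactly copied window and means of only 1.0 and 1.33 counts.

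The mid-coding windows of a few members show the range, and they are printed because they show which ones were matched in another gene's transcript. The search needed an exact run of 16 bases, so it finds ungapped copies with up to 2 mismatches but can miss those with more. Reads were paired and sequence outside annotated transcripts was not searched, so the windows do not settle where a read was placed. They are transcript sequences of the GENCODE annotation on GRCm38, taken from the middle of the coding sequence, and capitals in a copy mark the bases that differ from the member. No copy was found for the mid-coding window of Rpl8, the member of highest count per kilobase (992). Rpl4, next with 684.5, had its closest copy in the processed pseudogene Gm5835 with 2 mismatches. For Rps15, with 593 counts per kilobase, the copy in Rps15-ps2 had 1 mismatch. For Rplp0, the scaffold of the P stalk, and for Rpl11, with 11.1 and 9.6 counts per kilobase, the copies were exact.
Rpl8: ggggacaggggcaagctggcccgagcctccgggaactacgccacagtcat
Rpl4: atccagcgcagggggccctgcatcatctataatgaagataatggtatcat
Gm5835: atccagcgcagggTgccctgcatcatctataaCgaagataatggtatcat
Rps15: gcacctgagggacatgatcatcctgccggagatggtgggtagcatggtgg
Rps15-ps2: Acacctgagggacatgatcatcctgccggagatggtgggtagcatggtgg
Rplp0 and its pseudogene Rplp0-ps1: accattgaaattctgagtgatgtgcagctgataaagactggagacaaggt
Rpl11 and its pseudogene Gm10288: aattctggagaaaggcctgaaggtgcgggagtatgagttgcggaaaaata
Of 55 members with such a window, 42 had an exact copy, 6 a copy with 1 or 2 mismatches and 5 one with 3 to 10. None was found for Rpl8 and Rpl3l.

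**Figure D1:**
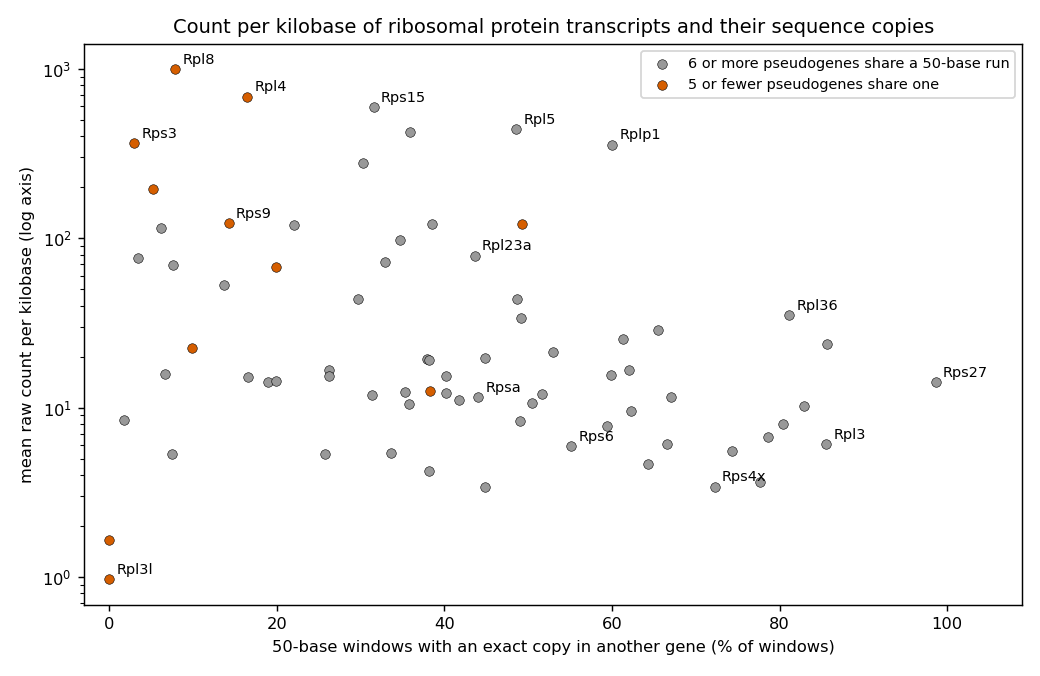
Each point is 1 ribosomal protein gene with a mean count above 0; the horizontal axis gives the percent of its 50-base windows with an exact copy in another gene and the vertical log axis its mean raw count per kilobase over 9 samples. Rpl8, Rpl4 and Rps3 stand at the upper left, Rpl3 and Rps4x at the lower right, and the lower left holds the paralog Rpl3l.

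Counts also went to some pseudogenes, though most had almost none. Over 205 genes named as ribosomal protein pseudogenes the median mean count was 0.11, and 89 were at 0 in all samples. Of the 205, 9 were tested and none was called in any pair of layers. Rpl14-ps1 had a mean count of 464.8, beside 122 for Rpl14 itself, a large-subunit protein, and Rpl10a-ps1 had 225.9 beside 15.8 for Rpl10a. Levels of Rpl14 and Rpl10a are therefore given as uncertain, as are those of every member with an exact copy elsewhere. Isoforms were not separable either. Of 52 members with several listed transcripts, 16 had a second transcript within 10% of the first, and in 19 of the 75 the highest transcript was not annotated as protein coding.

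Many starts of these genes carried a pyrimidine run of the kind that the TOP motif is built on. RefSeq promoter sequences (GRCm38.p6) matched 59 of the 75 members. A run of at least 8 C or T on the transcribed strand, within 15 bases on either side of the annotated start, was present in 26 of them (44.1%) and in 13.9% of all 27025 genes with a promoter. The 30-base windows below, with the run in capitals, are shown for members of high and low count. Rpl4 and Rps9 had 1053 and 165.6 counts, Rplp2 and Rps27 had 17.6 and 4.89, so the run was found at either end of the range. Rps4x, with 3.33 counts, had no such run in this window. A match describes letters only.
Rpl4 (chr9:64173372-64173401, plus strand): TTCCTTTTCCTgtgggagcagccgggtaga
Rps9 (chr7:3704026-3704055, plus strand): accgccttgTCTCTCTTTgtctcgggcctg
Rplp2 (chr7:141447636-141447665, plus strand): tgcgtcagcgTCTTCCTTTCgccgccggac
Rps27 (chr3:90213634-90213663, minus strand): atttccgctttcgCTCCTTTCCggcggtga
Rps4x (chrX:102189377-102189406, minus strand): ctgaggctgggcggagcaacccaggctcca

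A count of at least 10 in at least 3 samples was asked for before testing, and 53 members passed. Rps6, the protein phosphorylated by S6 kinase, did not, nor did Rpl11, Rps27a, Rps29, Rps27, Rps4x, Rpl39, Rpl39l, Rpl3l and Rpl10l. Rpl6, Rpl7, Rpl17, Rpl18, Rpl19, Rpl24, Rpl29, Rpl38, Rps10, Rps13, Rps16 and Rps18 did not either. The highest mean count among these 22 was 9.22, in Rpl39. Rps6 had 1, 3 and 5 counts in A, 7, 6 and 5 in B and 7, 5 and 21 in C. Rpl10l was at 0 in all 9 samples, and 3 counts, the number that a count of 0 still allows, equal 0.0256 to 0.254 normalized CPM per sample. A difference between layers was not detectable at this depth for such genes. Normalized CPM express a count relative to library size (CPM, counts per 1e6 counts), with library sizes adjusted by the trimmed mean of M-values (TMM). The adjusted sizes differed between layers, with 11810382 to 40102750 in A, 43307076 to 48041439 in B and 15677440 to 117401491 in C.

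Between layers A and B, 1 of the 53 tested members passed an adjusted p of 0.05 in edgeR's quasi-likelihood test, Rpl23a, which was higher in layer A. Over all tested transcripts 16.5% were called, and 10.7% as higher in layer A. Among transcripts with a mean count below 100 the share was 12.9%, and Rpl23a was among the 38 members of that kind. Of the 15 members with higher counts, none was called, where 20.5% of transcripts of that kind were. Between layers A and C only Rpl23a was called, where the share over all transcripts was 11.3%, and 6.98% as higher in layer A. Between layers B and C no member was called and 0.0% of transcripts. There, 2316 of all tested transcripts and 0 members had an unadjusted p under 0.05, and DESeq2 also called 0 members, with 0.22% of transcripts called. The test over the 3 layers together called Rpl23a alone, with 14.3% of all transcripts called.

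Rpl23a, a large-subunit protein near the peptide exit tunnel that contacts chaperones and the signal recognition particle, had 5.16, 3.34 and 2.49 normalized CPM in layer A. It had 0.202, 0.208 and 0.458 in layer B and 0.736, 0.446 and 0.596 in layer C. All layer A samples lay above all others. The means were 3.67 ± 1.36 (SD, n = 3), 0.289 ± 0.146 and 0.593 ± 0.145. The log2 fold change of layer A over layer B was 3.63 ± 0.54 (SE, edgeR adjusted p = 0.00054), and over layer C it was 2.58 ± 0.51 (edgeR adjusted p = 0.00655).

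This value cannot be assigned to Rpl23a. Its listed transcript, at chr11:78180935-78181630 on the minus strand of mm10 and annotated as a retained intron, lay with all 503 of its bases under exons of Tlcd1, a gene for a membrane protein, on the plus strand. The libraries did not keep strand, so reads of both genes cannot be told apart. Tlcd1 had 17.8, 15.6 and 11.9 normalized CPM in A, 1.26, 1.41 and 3.25 in B and 2.82, 3.38 and 3.54 in C. It showed the same separation of layer A, with a log2 fold change over layer B of 2.93 (edgeR adjusted p = 0.000412) and over layer C of 2.21 (edgeR adjusted p = 0.00467). Its shorter transcript of 1412 bases, which ends before the listed Rpl23a transcript begins, had a log2 fold change over layer B of 2.54 (edgeR adjusted p = 0.00151). The highest protein-coding transcript of Rpl23a gave 3.43 over layer B (edgeR adjusted p = 0.000898), and 310 of its 560 bases (55.4%) also lay under Tlcd1 exons.

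Rps15, near the decoding site of the small subunit, was the member nearest to the threshold without passing it. It had 13.6, 10.1 and 13.2 normalized CPM in A, 6.07, 5.54 and 7.29 in B and 8.93, 5.49 and 7.68 in C. All layer A samples were above all others, the log2 fold change over layer B was 0.97 ± 0.33 (SE), and its edgeR adjusted p was 0.055. DESeq2 gave an adjusted p of 0.0177, and edgeR's was also under the threshold with counts summed over the transcripts of a gene (0.0293). It was not with only the 6 samples of the 2 layers (0.0641), with no filter (0.0939) or with GC and length trends removed (0.136). It passed in 2 of the 9 fits that left out 1 sample, those without layer B replicate 3 and without layer C replicate 2, and the adjusted p over all 9 ran from 0.023 to 0.147. It was chosen for description after its values were seen.

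**Figure D2:**
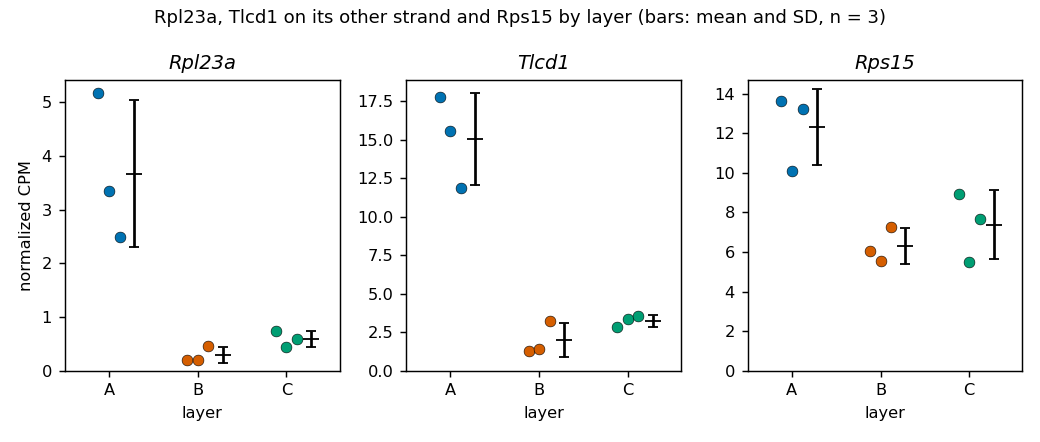
Normalized CPM of Rpl23a, of Tlcd1 on the other strand at its locus, and of Rps15, with 1 point per sample, the mean and the SD (n = 3), on linear axes from 0 that differ between panels. In each panel the 3 layer A samples lie above all samples of layers B and C.

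The members with the highest counts overlapped widely among the layers. Rpl8, a core protein at the peptidyl transferase centre, had 10.6, 17.7 and 30.5 normalized CPM in A, 9.77, 10.7 and 29.6 in B and 13.2, 5.29 and 26.0 in C. Replicate 3 was the highest in each layer, and the log2 fold change of layer A over layer B was 0.24 ± 0.55 (SE). Rpl4, whose long extension is embedded in the large subunit, was tighter, with 43.9, 36.0 and 28.5 in A, 18.2, 17.8 and 39.1 in B and 20.4, 18.1 and 23.0 in C. Layer A was above layer C in every sample, and layer B was split by replicate 3. Its log2 fold changes were 0.53 ± 0.34 over layer B and 0.82 ± 0.34 over layer C (SE, edgeR adjusted p = 0.337 and 0.15). Rps3, at the mRNA entry site, had 21.9, 27.8 and 22.2 in A, 10.6, 9.74 and 21.9 in B and 16.02, 7.97 and 16.8 in C, again with layer A above layer C.

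**Figure D3:**
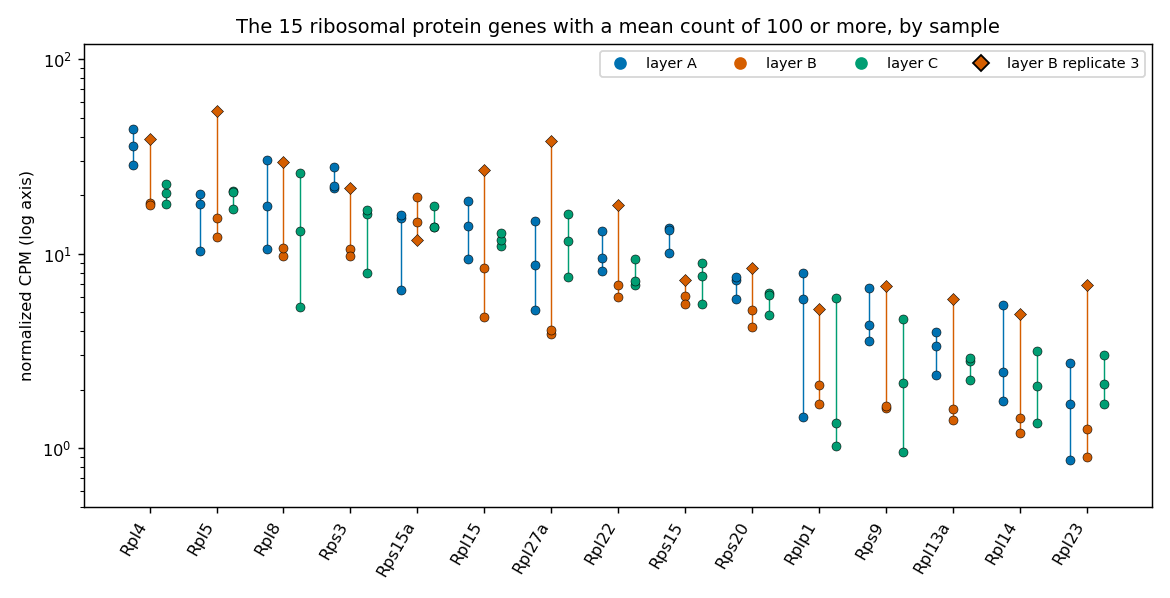
Normalized CPM on a log axis of the 15 members with a mean count of 100 or more, with 1 point per sample and a line from lowest to highest of each layer. Layer B replicate 3, drawn as a diamond, is the highest layer B sample for all of them except Rps15a.

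Layer B replicate 3 stood apart from the other layer B samples. It was above both of them in 39 of the 53 tested members (73.6%) and in 43.1% of all tested transcripts. For Rpl27a, a protein of the large subunit, it held 38.0 normalized CPM beside 3.89 and 4.04. For Rpl5, which carries 5S ribosomal RNA into the ribosome together with Rpl11, it held 54.5 beside 15.2 and 12.2. Genes of other kinds moved with it: the interneuron peptide Sst had 72.9 beside 4.36 and 4.27, and the summed oligodendrocyte markers of layer B ranged from 54.5 to 238. Their part in the result was not tested. Of the listed Rpl5 transcript, 46.6% lay under exons of Fam69a on the other strand. Fam69a had 67.9 in this sample beside 24.3 and 19.95, so the reads of both cannot be told apart.

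Without that sample, 7 of 50 tested members were called between layers A and B, where 20.4% of all transcripts were. That sample was singled out by its high values in these same members, and leaving it out lowers layer B for most of them. The calls are therefore a description and no separate support for a difference. All 7 were higher in layer A, a direction in which 13.1% of all transcripts were called. Beside Rpl23a they were Rps3, Rpl4, Rps15, Rpl15, Rps9 and Rpl27a. The log2 fold changes were 1.29 ± 0.35 for Rps3, 1.06 ± 0.30 for Rpl4, 1.14 ± 0.33 for Rps15, 1.14 ± 0.37 for Rpl15, 1.64 ± 0.54 for Rps9 and 1.31 ± 0.43 for Rpl27a (SE). Their edgeR adjusted p-values lay between 0.0157 and 0.0433. In the edgeR test described above, with all 9 samples, only Rpl23a passed. Beside that test, the other calls came from leaving out layer B replicate 3. Rps15 also passed in some fits that kept this sample, with an adjusted p of 0.0177 in DESeq2. Of the 7 called, Rpl27a had the opposite sign with all 9 samples, at -0.69 ± 0.70, and Rpl15 lay near 0, at 0.06 ± 0.49. Without layer B replicate 3, the test of any difference called 5 members (20.3% of all transcripts). Between layers A and C, 2 members were called (17.5% of all transcripts), Rpl23a and Rpl4. Both were higher in layer A, where 10.4% of all transcripts were called in that direction.

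**Figure D4:**
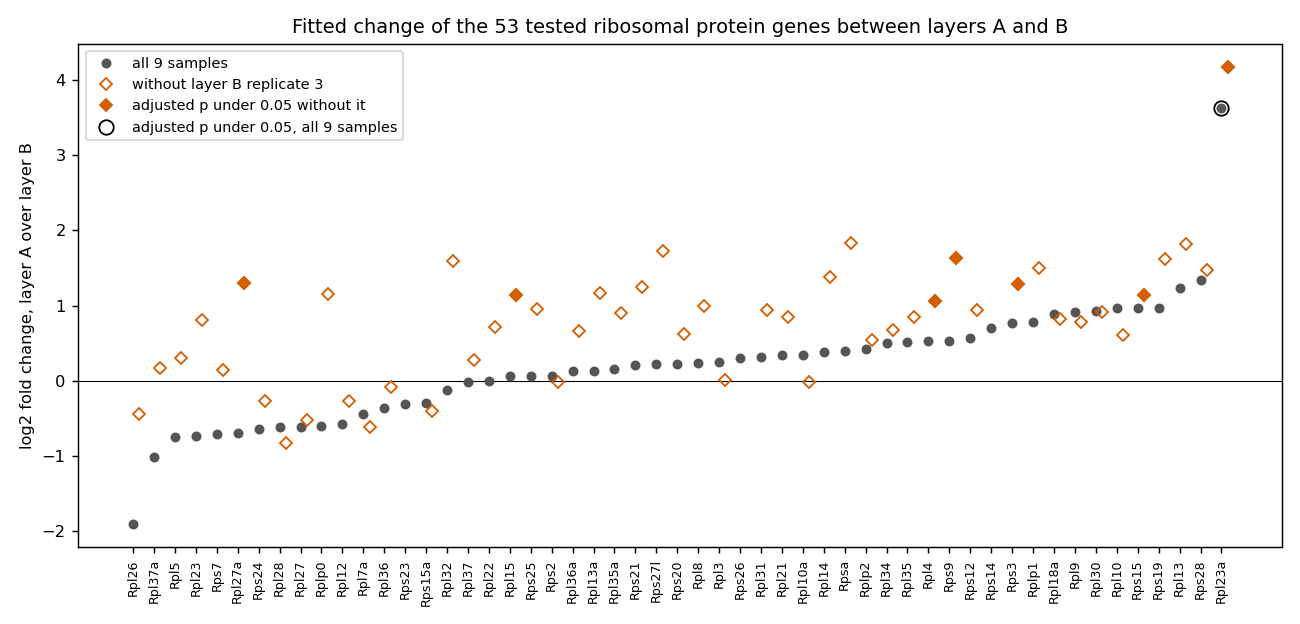
Fitted log2 fold change of layer A over layer B for each of the 53 tested members, ordered by the fit with all 9 samples (circles), with the fit without layer B replicate 3 as diamonds where the member was still tested. Rpl23a is past the threshold in both, and 6 more members in the second.

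Over the tested members the median log2 fold change of layer A over layer B was 0.22, beside -0.12 over all tested transcripts, and 36 of 53 lay above 0. Over layer C it was 0.41, beside -0.01, with 39 above 0. Of layer B over layer C it was 0.22, beside 0.07, with 42 above 0. Layer A samples all lay above layer B for 4 members (17.2% of all transcripts) and above layer C for 9 (17.0%). No member had all layer B samples above layer C, as 3.92% of all transcripts did. Leaving out layer B replicate 3, singled out by its high values in these members, raised the median over layer B to 0.85, with 40 of 50 above 0. The median of layer B over layer C became -0.46, with 38 of 50 below 0, so its sign depended on that sample. The small subunit had 18 tested members and the large subunit 32, with medians of 0.27 and 0.14 over layer B and of 0.61 and 0.28 over layer C.

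The stalk proteins gave no call. Rplp1 had 1.44, 5.88 and 7.93 normalized CPM in A, 1.69, 2.10 and 5.23 in B and 1.35, 1.02 and 5.90 in C. Rplp0 had 0.254 to 0.468 in A, 0.116 to 1.33 in B and 0.128 to 0.204 in C, and Rplp2 0.254 to 0.735, 0.3 to 0.427 and 0.0638 to 0.511. Rplp0 alone of them had all layer A samples above layer C. Its lowest layer A value, 0.254, equals the level of 3 counts in layer A replicate 1, so this separation rests on few counts. Rpsa, the laminin-receptor protein of the small subunit, overlapped among the layers with 0.573 to 0.868, 0.18 to 1.27 and 0.319 to 0.574. Rps19, mutated in Diamond-Blackfan anaemia, had 0.169 to 1.6, 0.277 to 0.708 and 0.319 to 0.664. Rpl10, a late-joining protein encoded on the X chromosome, had 0.508 to 0.673 in A, 0.104 to 0.517 in B and 0.179 to 0.255 in C. Its samples separated layer A from layer C, with an edgeR adjusted p of 0.221.

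Lower values in layer A were seen for some members, none past the threshold. Rpl26, which also regulates p53 translation, had 0.0847, 0.668 and 0.299 normalized CPM in A, 0.607, 0.393 and 2.98 in B and 0.761, 0.957 and 0.69 in C. Its samples of layer C all lay above layer A, and the log2 fold change of layer A over layer B was -1.90 ± 0.80 (SE, edgeR adjusted p = 0.122). It was -0.45 without layer B replicate 3 and -0.07 with the highest protein-coding transcript. Next by p against layer B were Rpl5 at -0.75 and Rpl37a at -1.01, with edgeR adjusted p of 0.324 and 0.355. Both turned positive without layer B replicate 3, at 0.30 and 0.17. Against layer C the lowest p among negative values belonged to Rpl34 at -1.56, Rpl26 at -1.16 and Rpl36 at -0.96, with edgeR adjusted p from 0.383 to 0.544. Between layers B and C, Rplp0 (1.73), Rps27l (0.83) and Rpl10a (0.95) had the smallest p among positive log2 fold changes. Without layer B replicate 3 the first 2 turned, to -0.03 and -0.67, and Rpl10a was 1.26. Rpl34 (-2.05), Rpl23a (-1.05) and Rpl13 (-1.61) had it among negative ones with all 9 samples, and each edgeR adjusted p was 0.9999. For Rpl34 a single sample set the value: layer C replicate 2 had 1.53 normalized CPM, and the other samples 0 to 0.375.

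Of the paralogs, Rps27l, a stress-responsive relative of Rps27, was the better measured, with a mean of 30.3 counts beside 4.89 for Rps27. Rps27 had exact copies of 98.6% of its windows and Rps27l of 13.7%, so the levels of both are uncertain. Rpl39 had 9.22 counts and Rpl39l 1.33. Per kilobase, the lowest tested members were Rpl35a, Rpl13 and Rpl3, at 5.29, 5.3 and 6.09. In Rpl3, 85.6% of windows were copied exactly elsewhere. Just outside the name rule, Rack1, a scaffold of the small subunit, had a mean of 811.8 counts and Rpl7l1 99.1. Fau, which encodes a fusion with a ubiquitin-like protein, had 9.22. Of the 7 such genes compared, 4 were tested and none was called.

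Other genes of translation were compared from lists chosen with earlier results in view. Of 15 tested TOP-mRNA genes outside the ribosome, 2 rose in layer A against layer B, and 1 against layer C. Over all transcripts 10.7% and 6.98% were called in that direction, so these counts lay near the general share. The elongation factor Eef2 had 60.2, 69.1 and 59.0 normalized CPM in A, 24.1, 26.4 and 25.7 in B and 35.6, 27.6 and 31.4 in C. Layer A was the highest in every sample, with a log2 fold change of 1.30 ± 0.26 over layer B and 0.99 ± 0.26 over layer C (SE, edgeR adjusted p = 0.00372 and 0.0244). Pabpc1, which binds the poly(A) tail, rose by 1.67 ± 0.42 over layer B (edgeR adjusted p = 0.0132). The median of the list was 0.04 over layer B and 0.42 over layer C.

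Few of the factors that build ribosomes or start translation passed the test. Over all transcripts 5.83% fell in layer A against layer B and 4.35% against layer C, and the median over transcripts with a mean count of 100 or more was -0.28 and -0.18. Of 29 tested assembly factors 2 fell in layer A against layer B and 1 against layer C, with medians of -0.50 and -0.41. Gnl3l, a nucleolar GTPase, fell by 0.98 over layer B and by 0.95 over layer C on the log2 scale (edgeR adjusted p = 0.019 and 0.0305), and Nop2, an rRNA methyltransferase, fell by 1.26 over layer B (edgeR adjusted p = 0.0435). No initiation factor of 29 was called, with medians of -0.60 and -0.36, and none of 11 RNA polymerase I genes, with -0.44 and -0.16. Of 17 mTORC1 and S6 kinase genes, Rps6ka1, a p90 S6 kinase, rose in layer A against layer B, at 1.97 ± 0.48 (SE, edgeR adjusted p = 0.0108), and the list's medians were -0.12 and 0.07. Of 75 mitochondrial ribosomal proteins, Mrpl3 fell in layer A against layer B, at -1.31 ± 0.43 (edgeR adjusted p = 0.0481), and none passed against layer C. Their medians were -0.59 and -0.33.

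Markers of some other cell types rose in layer A, most clearly those of astrocytes, of vessels and meninges, and of microglia and macrophages. All 10 astrocyte markers rose in layer A against each other layer, with a summed level of 5390 to 11100 normalized CPM, beside 724 to 1320 in layer B and 1310 to 1800 in layer C. Of 14 endothelial, mural and meningeal markers, 14 and 13 were higher than in layers B and C, at 298 to 448 beside 19.9 to 65.2 and 52.9 to 71.6. Of 10 microglia and macrophage markers 7 were higher than in each, at 129 to 148 beside 19.1 to 42.6 and 43.5 to 59.3. Of 10 oligodendrocyte lineage markers 5 and 1 were higher. Of 8 glutamatergic markers 1 was higher and 3 lower than in layer B, and 1 higher and 5 lower than in layer C. Of 8 GABAergic ones 1 was higher than in layer B and 1 lower than in layer C. Over all transcripts, 10.7% rose in layer A against layer B and 6.98% against layer C, while 5.83% and 4.35% fell. Beside these shares, 1 call in a list of 8 or 10 markers does not set that list apart. No marker was at 0 in all samples, so neuronal and glial markers of cortex were present. The part of these cells in the values of Rps15 and Rpl4 was not tested.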

How the data were processed

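RNA from laser-captured piriform layers was amplified by the authors with the Ovation system, made into strand non-specific libraries, read as paired 50-base ends and aligned to mm10 with Bowtie. The authors deposited raw counts per Ensembl transcript, without normalization. The submitters' processing notes also name HTSeq 0.5.3 and bcl2fastq 1.8.4. How reads that overlap several transcripts or fit several places were counted is not given in the sources used here.

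Identifiers were joined to GENCODE release M21 on GRCm38, and 82807 of 95533 (86.68%) matched. Transcripts that reached 10 counts in 3 or more samples (56416) were scaled by TMM and tested with edgeR 4.0.16 (R 4.3.3), by quasi-likelihood F-tests with all 9 samples and Benjamini-Hochberg adjustment. An SE is the log2 fold change divided by the root of F. DESeq2 1.42.0 was an alternative, as were other scalings, filters, transcript choices, a replicate block and leaving out each sample. The fit was tested on simulated counts. The replicate numbers did not pair the samples.

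The members and the lists were chosen with earlier results of these data known. A few genes, 4 that the name rule takes among them, are not reported here and enter no count of members, but stayed in the fit. Named were structural reference members and paralogs, the members called with samples that did not overlap (or, where none was called, the 3 of smallest p in each direction), and the 3 of highest and lowest count per kilobase.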

Additional observations from a re-analysis of the deposited data

How the results depend on the processing

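Between layers A and B the 1 member called in the report became 2 with DESeq2, with total counts without mitochondrial transcripts, with mitochondrial transcripts left out, with sums over the transcripts of a gene and with the highest transcript per gene, the second being Rps15. The shares over all transcripts or genes in these fits were 20.7, 15.5, 16.5, 22.7 and 24.3%. With at least 10 counts asked for in all 9 samples Rpl23a was not tested, and the 1 call was Rps15 (20.7% of all). With 1 sample left out the number ran from 1 to 7, where 9.92 to 20.4% of all transcripts were called. Between layers A and C the 1 call became 0 under that filter, which left 18 members to test (15.4% of all transcripts called). It became 1 to 2 with 1 sample left out (2.45 to 17.5% of all transcripts). For any difference among layers the 1 call became 2 with DESeq2 (19.1% of all) and 0 with the filter on all 9 samples (17.8%). It became 1 to 5 with 1 sample left out (7.25 to 20.3% of all transcripts). The highest number in each of these ranges came without layer B replicate 3. The count between layers B and C was 0 in each fit. With 1 sample left out, the members' median ran from 0.0402 to 0.848 for layer A over layer B and from -0.456 to 0.423 for layer B over layer C. The values 0.848 and -0.456, both without layer B replicate 3, were the only ones among all alternatives that moved by more than the spread between replicates. Scaling by total counts without mitochondrial transcripts moved the median over all transcripts between layers A and B from -0.12 to -0.02, and that of the members to 0.416.

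Without layer B replicate 3 the sign of the log2 fold change turned for 10 of 50 members between layers A and B, 1 between A and C and 28 between B and C. Of the members named for their rank, 6 turned in some fit. Rpl26 over layer C was 0.371 with its protein-coding transcript. With 1 sample left out, Rpl37a over layer B ran from -1.57 to 0.173, Rpl5 from -1.08 to 0.296 and Rpl8 from -0.217 to 0.998. Over layer C, Rpl8 ran from -0.0587 to 1.11. For layer B over layer C, Rplp0 ran from -0.0305 to 2.18 and Rps27l from -0.673 to 1.25. The sign turned without layer B replicate 3 for Rpl37a, Rpl5, Rplp0 and Rps27l. For Rpl8 it turned without layer A replicate 3 or layer B replicate 1. The causes were not tested.

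With the replicate number as a block, the calls were 1, 1 and 0 between layers A and B, A and C, and B and C, and 1 for any difference, with 16.3, 11.3, 0.0 and 14.0% of all transcripts called. Samples of the same number in different layers correlated from -0.186 to 0.243 in their deviations, and 4 of 9 correlated best with their own number. A pairing by number was thus not shown, and with 3 replicates a layer this check cannot exclude one. Depth limits the 38 tested members with a mean count under 100.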
